A study of Mus musculus with 8 samples.

Results

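The miR-15 family groups microRNAs (miRNAs) that begin with the same or nearly the same bases and are known as brakes on cell division. Its members here were taken by name from the scanner files: mmu-miR-15a, mmu-miR-15b, mmu-miR-16, mmu-miR-195, mmu-miR-497, mmu-miR-322 and mmu-miR-503, written below without the prefix for mouse. These were 7 of the 611 mouse miRNAs on the array, and all 7 were among the 222 bright enough to be tested. The arrays compared 4 kidneys whose ureter had been ligated 7 days earlier with 4 contralateral kidneys that were not obstructed. All kidneys came from ICR mice, an outbred laboratory strain, and no genetic change is given in the labels. The control kidneys came from mice that had been operated on as well, so no kidney of an unoperated mouse stood in the comparison. Total RNA of whole kidneys, 100 ng per array, was labelled with Cy3, so fewer cells of a type and less of a miRNA per cell cannot be told apart. The labels do not say whether kidneys of a group came from separate mice or whether the groups share mice. The p-values measure only the spread between these samples.

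A miRNA guides a silencing complex to messenger RNAs, chiefly through pairing of its seed, bases 2 to 8, with sites in the untranslated region after the coding sequence. Guides with the seed of miR-15 and miR-16 are known to repress cyclins D and E, Cdk6, Chek1, Wee1 and the survival factor Bcl2, and loss of miR-15a and miR-16-1 is a well known lesion of chronic lymphocytic leukaemia. miR-16 is found in most tissues and is abundant in red blood cells. miR-322 and miR-503 are known to act on Cdc25a, a phosphatase that starts cell division, and miR-195 and miR-497 are known for holding heart muscle cells out of the cycle after birth.

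The mature sequences show why these miRNAs are treated as 1 family. They are printed 5′ to 3′ from RefSeq (GRCm38.p6), with the seed in capitals, and all 7 names were matched. The last 2 lines give miR-103 and miR-107, whose seed is the same motif moved by 1 base.
miR-15a: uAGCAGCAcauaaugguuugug
miR-15b: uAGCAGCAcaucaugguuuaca
miR-16: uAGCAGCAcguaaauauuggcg
miR-195: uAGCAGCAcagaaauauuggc
miR-497: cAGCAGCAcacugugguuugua
miR-322: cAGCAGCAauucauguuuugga
miR-503: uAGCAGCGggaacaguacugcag
miR-103: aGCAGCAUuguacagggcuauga
miR-107: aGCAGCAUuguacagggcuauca

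The members miR-15a, miR-15b, miR-16, miR-195, miR-497 and miR-322 carried the seed AGCAGCA, which 10 of 1679 mature miRNAs in the RefSeq table share (0.596%). miR-503 carried AGCAGCG, which no other entry of that table had. Beyond the seed the members differed. miR-16 and miR-195 were identical at 19 of 21 positions, and miR-15a and miR-15b at 18 of 22. miR-322 and miR-503 matched at 11 of 22. Signals of the near-identical pairs are therefore uncertain to the extent that a probe for one can bind the other, which was not tested, and the files used here give no probe sequences.

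The precursors lie in pairs, given here by their mature guide strands. Those of miR-15a and miR-16-1 sit 117 bases apart at chr14:61631936-61632096 (minus strand, GRCm38.p6), within the span of the long noncoding gene Dleu2. miR-15b and miR-16-2 sit 121 bases apart at chr3:69009775-69009939 (plus strand), within the span of Smc4, which encodes a condensin subunit of mitotic chromosomes. miR-497 and miR-195 sit 310 bases apart at chr11:70234730-70235082 (plus strand). miR-322 and miR-503 sit 256 bases apart at chrX:53054027-53054327 (minus strand), within the span of the noncoding gene C430049B03Rik. The mature miR-16 is the same from both of its loci, so its signal cannot be divided between chromosomes 3 and 14.

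Levels are log2 signals after each array was divided by the 75th percentile of its bright probes, so each change is measured against the brighter miRNAs in that kidney. Before scaling, that percentile was 417 to 582 on the contralateral arrays and 514 to 1595 on the obstructed arrays, and between 228 and 310 mouse miRNAs were well above background. The tissue carried kidney markers: 5 of 6 tubule miRNAs were tested, with miR-215 above background on no array. The liver miRNA miR-122 was above background on none. Other lists were not silent: 2 of 3 brain miRNAs (miR-9 and miR-128) and 1 of 5 striated muscle miRNAs (miR-1) were tested. In the pancreas list, miR-375 was above background on 2 contralateral and 3 obstructed arrays. Obstructed kidney 2 lay nearer to the control group than to its own: across the tested miRNAs its mean correlation was 0.887 with obstructed kidneys 1, 3 and 4 and 0.964 with the contralateral kidneys. Results are therefore given with and without it.

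No member of the family passed the test when all 8 arrays were compared. The count was 0 of 7 (limma, Benjamini-Hochberg adjusted p under 0.05), where 14.9% of all tested miRNAs were called and 1.35% were called higher, and at an unadjusted p under 0.05 it was 1 of 7, where 36.5% of all tested miRNAs passed. The median log2 change of the members was 0.14, and that of all tested miRNAs was -0.14. The members ran from -0.087 for miR-322 to 0.64 for miR-15b. No member's groups separated completely, a separation that 23.0% of tested miRNAs showed.

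**Figure D1:**
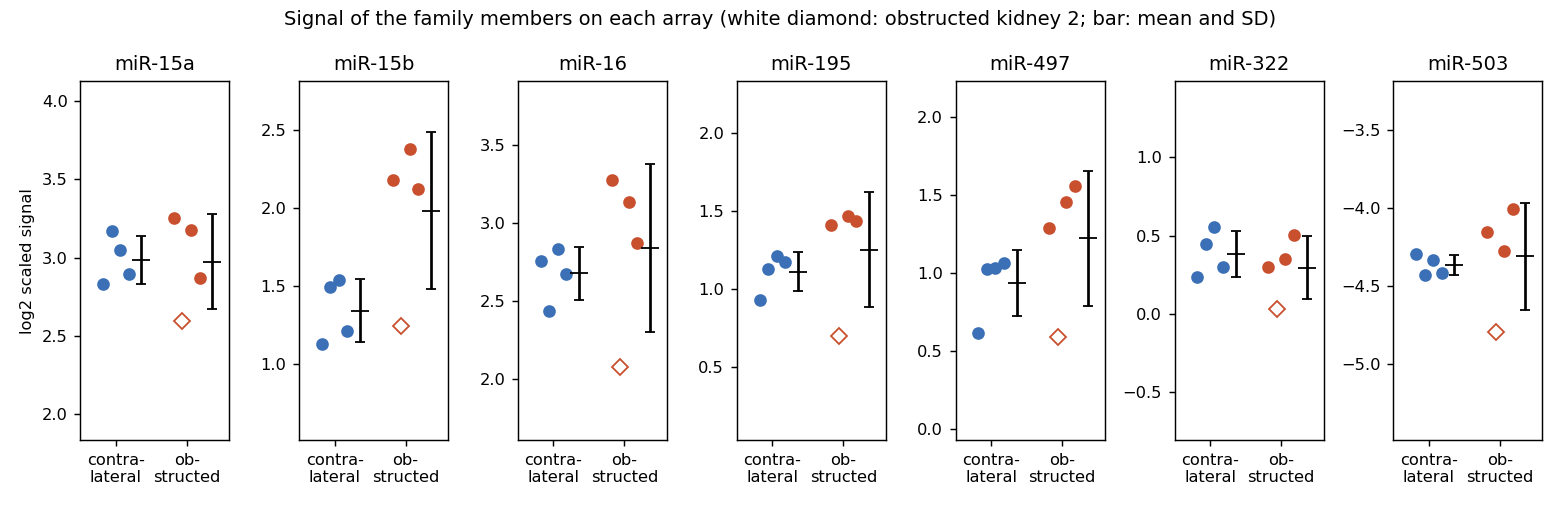
Log2 scaled signal of each of the 7 members (vertical axis, each panel spanning the same log2 width around its own mean) on the 4 contralateral (blue) and 4 obstructed (red) arrays, with group mean and SD as bars. The white diamond is obstructed kidney 2, which lies within or below the contralateral points in every panel, while the other obstructed points of miR-15b, between 2.12 and 2.37, lie above all contralateral points.

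miR-15b, encoded beside miR-16-2 within Smc4, had the largest difference of the 7. Its log2 signal was 1.13, 1.50, 1.54 and 1.21 in contralateral kidneys 1 to 4 and 2.18, 1.25, 2.37 and 2.12 in obstructed kidneys 1 to 4. Obstructed kidneys 1, 3 and 4 were above every contralateral kidney, and obstructed kidney 2 was among them. The log2 change was 0.64 (SE 0.26, n = 4 per group), a 1.56-fold higher mean, with a 95% confidence interval of 0.044 to 1.23 (limma adjusted p = 0.115). It ranked 34th of the 222 tested miRNAs from the highest change downward. Its probes gave 0.69 and 0.61.

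miR-16, the partner of miR-15b on chromosome 3 and of miR-15a on chromosome 14, differed less. It measured 2.76, 2.44, 2.83 and 2.67 in contralateral kidneys 1 to 4 and 3.28, 2.08, 3.13 and 2.87 in the obstructed kidneys in the same order. Obstructed kidney 2 was the lowest and obstructed kidney 1 the highest of all arrays, so the obstructed group spanned the contralateral one on both sides. The log2 change was 0.16 (SE 0.27, n = 4 per group; 95% confidence interval -0.45 to 0.78; limma adjusted p = 0.673).

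miR-15a, the other partner of miR-16, was close to level in its mean. Its values were 2.83, 3.17, 3.05 and 2.89 in contralateral kidneys and 3.25, 2.59, 3.18 and 2.87 in obstructed kidneys. The groups overlapped, and the change was -0.013 in log2 (SE 0.18, n = 4 per group; limma adjusted p = 0.958). Its 95% confidence interval, -0.43 to 0.40, leaves room for a change of either sign.

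miR-195 and miR-497, the pair on chromosome 11, followed each other from kidney to kidney. Each profile over the 8 arrays lay nearer still to a miRNA outside the family, miR-532-3p for miR-195 and miR-181c for miR-497. miR-195 measured 0.93, 1.13, 1.21 and 1.17 in contralateral and 1.41, 0.70, 1.47 and 1.44 in obstructed kidneys 1 to 4. miR-497 measured 0.62, 1.03, 1.03 and 1.06 in contralateral and 1.28, 0.59, 1.45 and 1.56 in obstructed kidneys 1 to 4. For both, obstructed kidneys 1, 3 and 4 were above every contralateral kidney and obstructed kidney 2 was below every one. The log2 change was 0.14 for miR-195 (SE 0.20, n = 4 per group; limma adjusted p = 0.635). It was 0.29 for miR-497 (SE 0.23; limma adjusted p = 0.400).

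miR-322 and miR-503, the pair on chromosome X, also lay near no difference. miR-322 measured 0.23, 0.44, 0.56 and 0.30 in contralateral and 0.30, 0.028, 0.35 and 0.51 in obstructed kidneys 1 to 4. Its change was -0.087 in log2 (SE 0.15, n = 4 per group; 95% confidence interval -0.43 to 0.26; limma adjusted p = 0.692). Its obstructed values lay within the contralateral range apart from obstructed kidney 2, which was the lowest.

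miR-503 alone lay near the floor of -5.56 that was set under all log2 signals. It measured -4.29, -4.43, -4.33 and -4.42 in contralateral and -4.16, -4.80, -4.28 and -4.01 in obstructed kidneys 1 to 4. One of its probes was above background on all 8 arrays and the other on 0, so its level rests on a single probe. The change was 0.059 (SE 0.18, n = 4 per group; limma adjusted p = 0.847). The contralateral values were tight (SD 0.065) and the obstructed ones spread on both sides of them (SD 0.34).

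**Figure D2:**
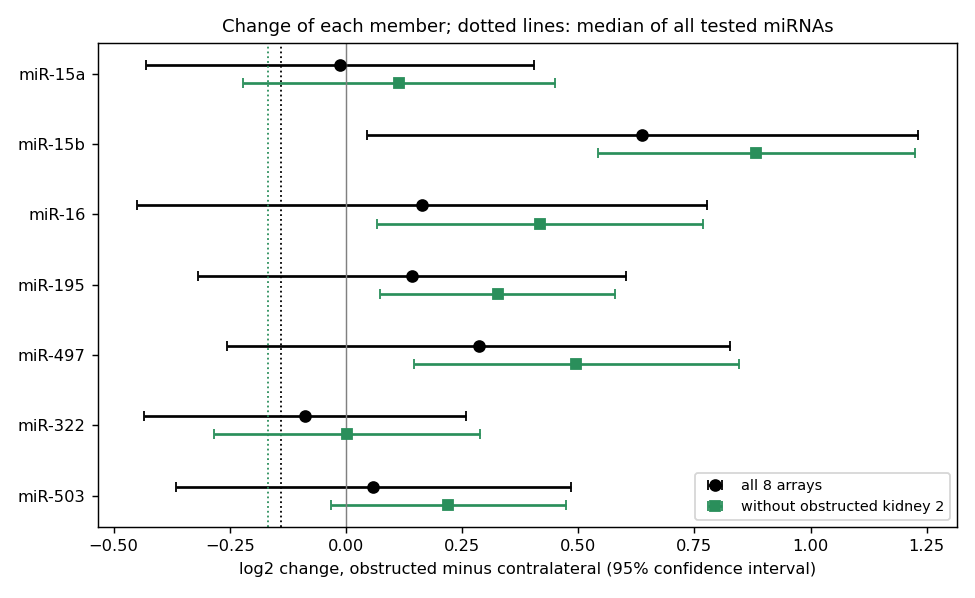
Log2 change of each member, obstructed minus contralateral, with its 95% confidence interval, over all 8 arrays (black circles) and without obstructed kidney 2 (green squares). Dotted lines mark the median change of all tested miRNAs, -0.14 and -0.17, and the black intervals of all members but miR-15b cross 0.

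Obstructed kidney 2 held the lowest value of all 8 arrays for 6 of the 7 members, miR-15b being the exception. Among all tested miRNAs it held the lowest value for 30.6%. When it was left out, miR-15b, miR-497 and miR-195 rose and 4 members were not called. This was 3 of 7, where 50.9% of all tested miRNAs were called and 20.7% were called higher, so the share of members called higher stood beside a background that had itself grown. miR-15b rose by 0.88 in log2 (SE 0.14, 3 against 4 arrays), or 1.84-fold (limma adjusted p = 0.00261). miR-497 rose by 0.50 (SE 0.15; limma adjusted p = 0.0281) and miR-195 by 0.33 (SE 0.11; limma adjusted p = 0.0385).

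miR-16 then lay at 0.42 in log2 (SE 0.15, 3 against 4 arrays; limma adjusted p = 0.0505), just outside the threshold. miR-503 was at 0.22 (SE 0.11; limma adjusted p = 0.129), miR-15a at 0.11 (SE 0.14; limma adjusted p = 0.538) and miR-322 at 0.0016 (SE 0.12; limma adjusted p = 0.990). The 3 remaining obstructed kidneys lay wholly above the contralateral kidneys for 5 of the 7 members, namely miR-15b, miR-16, miR-195, miR-497 and miR-503, where 23.9% of tested miRNAs did so upward. Leaving out the array nearest to the other group tends by its own nature to widen differences, though not for every miRNA (miR-322 went from -0.087 to 0.0016). The values without obstructed kidney 2 do not replace those of all 8 arrays. With limma's array weights, which gave that array 0.114, 4 of 7 members were called (miR-15b, miR-16, miR-195 and miR-497), where 62.2% of all tested miRNAs were. Within slide row 2, which held kidneys 3 and 4 of both groups, only miR-15b was called, where 31.1% of all tested miRNAs were.

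The size of the changes depended on the scaling. Without scaling, all 7 members had a change above 0, from 0.79 for miR-322 to 1.52 for miR-15b. None was called by limma, where 3 of the 222 tested miRNAs were. An unadjusted p under 0.05 was reached by 2 of 7, where 64 of the 222 reached it. The median of all tested miRNAs was then 0.74, and the members stood at 0.053 to 0.78 from it. These distances equal those with scaling by construction, since a constant divisor per array shifts every log2 change alike. Without scaling and without obstructed kidney 2, all 7 members were called higher, where 50.9% of all tested miRNAs were called higher. With normexp background correction miR-503 was at -0.98, or -0.36 from the median of all tested miRNAs, and the other members lay above that median.

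**Figure D3:**
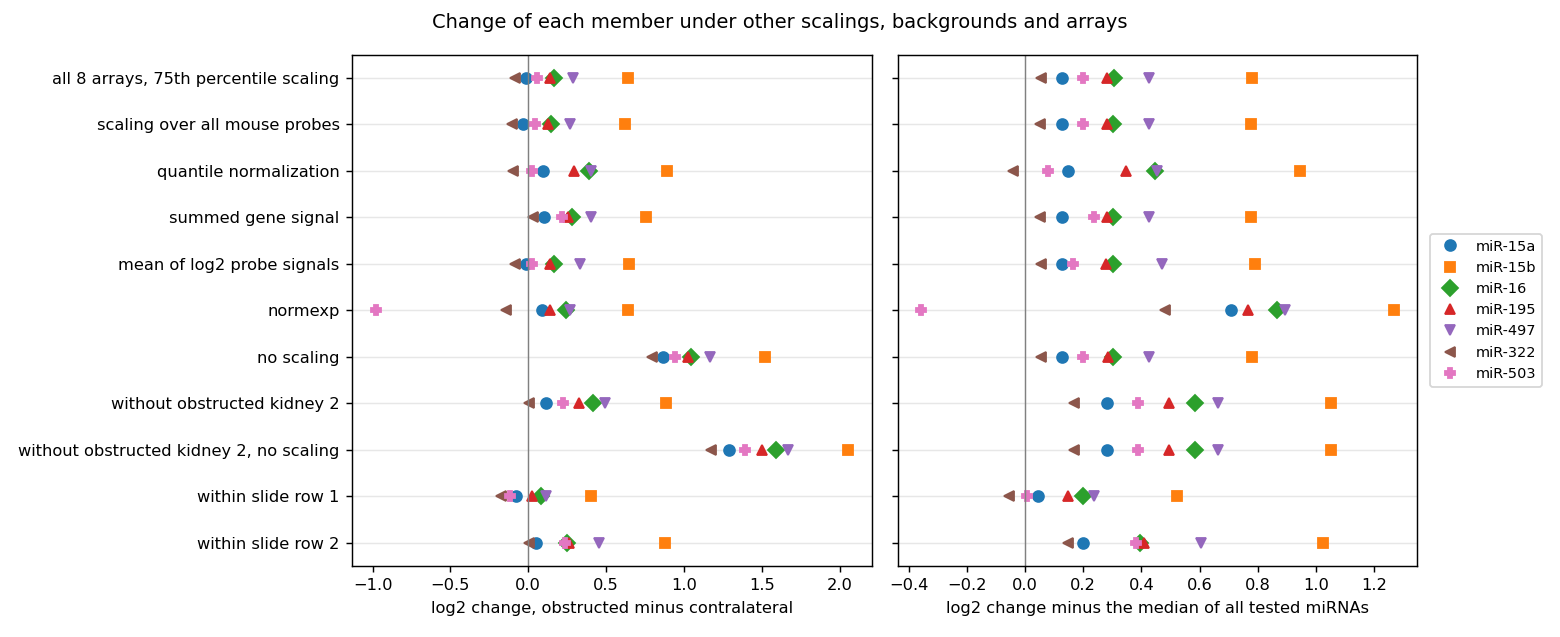
Log2 change of each member (left) and the same minus the median of all tested miRNAs (right) under each scaling, background correction, summary and set of arrays named on the vertical axis. In the lines drawn miR-15b lies farthest to the right, and miR-322 lies farthest to the left except in the line of normexp on all 8 arrays, where miR-503 lies at -0.98.

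Differences between 2 members on the same array are free of a constant scaling of that array, and 7 such pairs were compared. The near-identical miR-15b and miR-15a differed most. The log2 signal of miR-15b minus that of miR-15a was -1.70, -1.67, -1.51 and -1.68 in contralateral kidneys 1 to 4. In obstructed kidneys 1 to 4 it was -1.07, -1.35, -0.80 and -0.75. All 4 obstructed kidneys, kidney 2 included, were above all 4 contralateral ones. The difference between the groups was 0.65. The two-sided exact permutation test gave p = 0.0286, the smallest possible with 4 against 4 arrays, and 0.200 after Benjamini-Hochberg adjustment over the 7 pairs. A single pair could not pass that adjustment in this design, and the result did not pass it. The difference was 0.48 within slide row 1 and 0.82 within slide row 2 (2 against 2 arrays each, not tested), and 0.77 without obstructed kidney 2 (exact permutation, adjusted p = 0.160).

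miR-15b was also compared with miR-16, its neighbour within Smc4. The difference was -1.63, -0.94, -1.29 and -1.46 in contralateral and -1.09, -0.83, -0.76 and -0.74 in obstructed kidneys 1 to 4. The group means differed by 0.47 (exact permutation p = 0.0571, two-sided, adjusted 0.200 over the 7 pairs), and obstructed kidney 1 lay below contralateral kidney 2. The partners on chromosome 11 differed by -0.14 between the groups (miR-195 minus miR-497, exact permutation p = 0.143, adjusted 0.333). The partners on chromosome X differed by -0.15 (miR-322 minus miR-503, exact permutation p = 0.257, adjusted 0.440).

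The other 3 pairs did not pass either. miR-15a minus miR-16 differed by -0.18 (exact permutation p = 0.429, adjusted 0.50), miR-322 minus miR-16 by -0.25 (exact permutation p = 0.314, adjusted 0.440) and miR-195 minus miR-16 by -0.021 (exact permutation p = 0.886, adjusted 0.886), all two-sided with 4 against 4 arrays. The last of these pairs, like miR-15b and miR-15a, compares near-identical sequences.

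**Figure D4:**
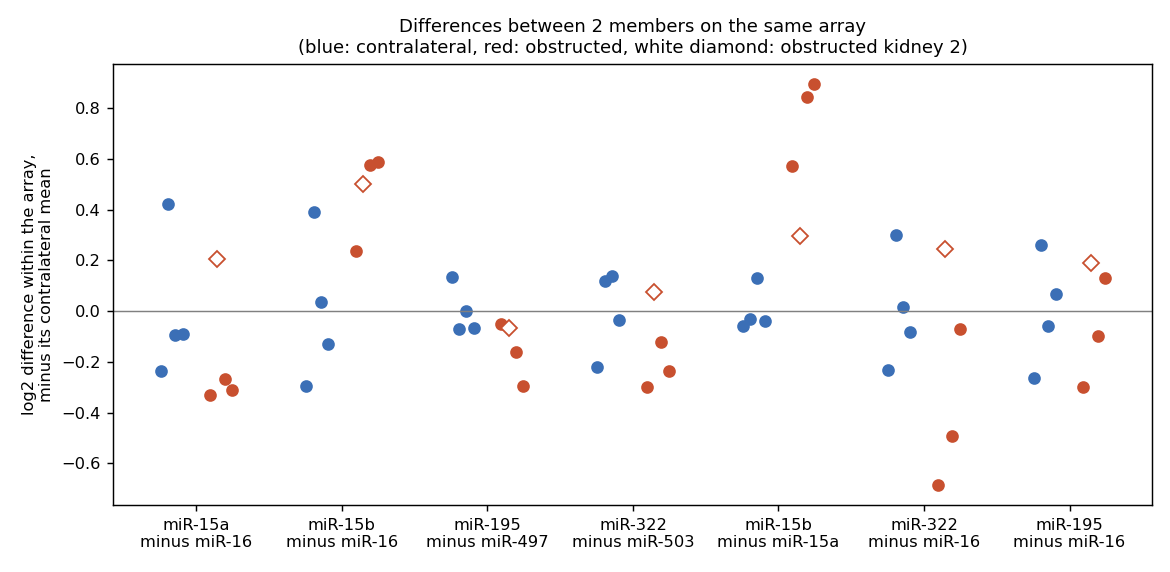
Log2 difference between 2 members on the same array, minus the contralateral mean of that difference (vertical axis), for the 7 pairs, with 4 contralateral (blue) and 4 obstructed (red) arrays each. Only for miR-15b minus miR-15a, whose group means differ by 0.65, do all red points, white diamond included, lie above all blue points.

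The erythroid markers were highest in the kidneys numbered 2, where miR-16 was lowest of its group (2.44 contralateral, 2.08 obstructed). The summed scaled signal of miR-451, miR-144 and miR-486, which are abundant in red blood cells, was 44.6 in contralateral kidney 2 and 24.4 in obstructed kidney 2. It lay between 5.16 and 7.58 in the other 6 kidneys. Of the 3 markers 2 were tested, and limma called neither over all 8 arrays, where 14.9% of all tested miRNAs were called. Without obstructed kidney 2 neither was called, where 50.9% of all tested miRNAs were. miR-144 was above background on 1 array of each group, the kidneys numbered 2. miR-15a minus miR-16 was 0.73 and 0.52 in those kidneys numbered 2 and between -0.021 and 0.22 in the other 6. The part of red blood cells in these values was not tested.

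Leukocyte markers and fibrosis-associated miRNAs had obstructed kidneys 1, 3 and 4 above every contralateral kidney. The same held for miR-15b, miR-16, miR-195, miR-497 and miR-503, and for 23.9% of all tested miRNAs. For the leukocyte list, the summed scaled signal of miR-142-3p, miR-142-5p, miR-223, miR-150, miR-342-3p and miR-155 was 1.46 to 2.00 in contralateral kidneys, 1.39 in obstructed kidney 2 and 5.91 to 6.55 in obstructed kidneys 1, 3 and 4. Of the 6 markers 4 were tested, with 0 called by limma over all 8 arrays, where 14.9% of all tested miRNAs were, and 3 at an unadjusted p under 0.05, where 36.5% were. Without obstructed kidney 2 all 4 were called higher, where 20.7% of all tested miRNAs were. miR-142-5p and miR-150 were above background on 0 and 1 contralateral arrays and on 3 obstructed arrays each. The fibrosis-associated list (miR-21, miR-214, miR-199a-5p and miR-199a-3p) summed to 34.5 to 62.6 in contralateral kidneys, 27.8 in obstructed kidney 2 and 89.3 to 118 in obstructed kidneys 1, 3 and 4. All 4 of its miRNAs were tested, with 0 called by limma over all 8 arrays (1 at an unadjusted p under 0.05) and 4 called higher without obstructed kidney 2, beside the same shares of all tested miRNAs. The pancreas list, of which 0 of 3 were tested, summed to 0.065 to 0.12, 0.064 and 0.16 to 0.19 in the same order. The tubule list summed to 28.5 to 33.0 in contralateral kidneys, 22.6 in obstructed kidney 2 and 17.8 to 21.5 in the other obstructed kidneys. Of its 5 tested miRNAs, limma called 2 lower over all 8 arrays, miR-192 and miR-194, where 13.5% of all tested miRNAs were called lower. The log2 change of miR-10b was -0.48 (limma adjusted p = 0.0701). Those of miR-204 and miR-10a were -0.12 (limma adjusted p = 0.755) and 0.0043 (limma adjusted p = 0.980), so the list did not fall as 1. The part of cell composition in the members' values was not tested.

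The miRNAs with the shifted seed had lower scaled means in obstructed kidneys. miR-107 fell by 0.96 in log2 (SE 0.18, n = 4 per group; limma adjusted p = 0.0172), and miR-103, which differs from it at 1 of 23 positions, was at -0.46 (SE 0.15; limma adjusted p = 0.0701). Of this list 1 of 2 fell, where 13.5% of all tested miRNAs were called lower, and the median was -0.71 beside -0.14 for all tested miRNAs. Without obstructed kidney 2 both fell, where 30.2% of all tested miRNAs were called lower, miR-107 by 1.10 (limma adjusted p = 0.000708) and miR-103 by 0.42 (limma adjusted p = 0.0400).

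The call of miR-107 on all 8 arrays ended under several settings. The limma adjusted p was 0.0748 with scaling over all mouse probes, 0.0787 with quantile normalization, 0.120 with normexp, 0.0640 with the summed gene signal and 0.0729 with a replicate block. It was 0.925 within slide row 1, and 0.0520 to 0.0678 without contralateral kidney 1, 3 or 4 or obstructed kidney 1 or 3. Without scaling, miR-107 was at -0.078 (limma adjusted p = 0.926) and miR-103 at 0.42 (limma adjusted p = 0.538). These were -0.82 and -0.32 from the median of all tested miRNAs, by construction the same distances as with scaling. Without obstructed kidney 2, miR-103 was no longer called with quantile normalization (limma adjusted p = 0.0971), with normexp (limma adjusted p = 0.148) or with no scaling (limma adjusted p = 0.129), and neither was miR-107 with no scaling (limma adjusted p = 0.878).

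Within the X-linked precursor cluster of miR-322 and miR-503, the other miRNAs were dim. Only 2 of 7 were tested, miR-450a-5p and miR-542-5p. miR-450a-5p measured -3.88, -3.75, -3.43 and -3.48 in contralateral and -4.41, -4.60, -4.24 and -4.07 in obstructed kidneys 1 to 4. All 4 obstructed kidneys were below all contralateral ones, as they were for miR-103 and miR-107. Complete separation, in either direction, was shown by 23.0% of all tested miRNAs. miR-450a-5p fell by 0.69 in log2 (SE 0.17, n = 4 per group; limma adjusted p = 0.0335), 1 of 2 beside the 13.5% of all tested miRNAs called lower, while miR-542-5p was at -0.14 (SE 0.22; limma adjusted p = 0.655). The change of miR-450a-5p was 0.19 without scaling and was not called there (limma adjusted p = 0.821). Its distance from the median of all tested miRNAs, -0.55, is the same with and without scaling by construction. Without obstructed kidney 2 miR-450a-5p fell by 0.61 (limma adjusted p = 0.0152). On all 8 arrays its call also ended with scaling over all mouse probes (limma adjusted p = 0.180), quantile normalization (limma adjusted p = 0.111), normexp (limma adjusted p = 0.180), the summed gene signal (limma adjusted p = 0.0728), no filter on dim miRNAs (limma adjusted p = 0.0715) and a replicate block (limma adjusted p = 0.0729). It ended within slide row 1 (limma adjusted p = 0.925), and when single arrays other than obstructed kidney 2 or 4 were left out (limma adjusted p from 0.0532 to 0.108). Without obstructed kidney 2 it ended with quantile normalization (limma adjusted p = 0.0590), normexp (limma adjusted p = 0.115) and no scaling (limma adjusted p = 0.277).

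The other strands of the member precursors were at or near background. Of 7 names, 5 were on the array (miR-15a*, miR-15b*, miR-16*, miR-322* and miR-503*) and 0 were tested. None was above background on a contralateral array, and miR-15b* and miR-322* were above it on 2 obstructed arrays each, kidneys 3 and 4, the arrays with the highest signal before scaling.

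**Figure D5:**
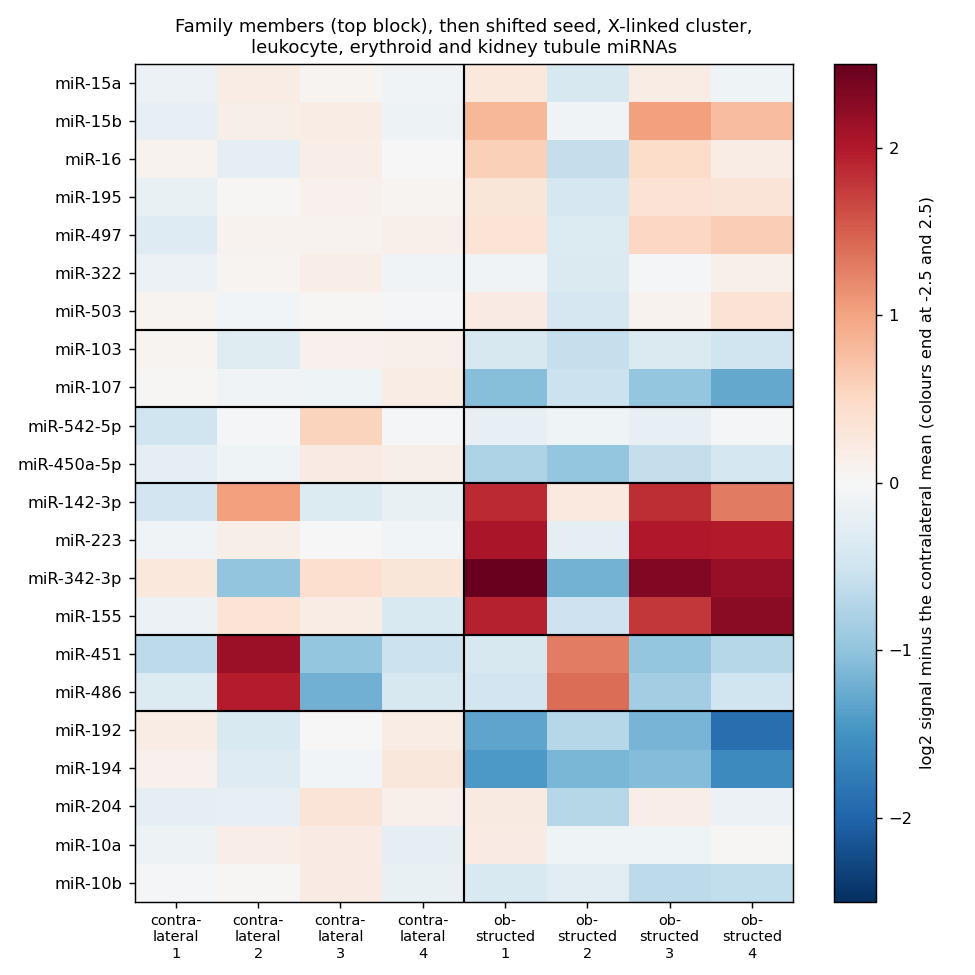
Log2 signal minus the contralateral mean (colour) of the 7 members in the top block and of tested related and marker miRNAs below, by array. The members' obstructed columns are pale next to the leukocyte block, and in the column of obstructed kidney 2 all 7 members lie below 0, from -0.60 for miR-16 to -0.097 for miR-15b.

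Outside the family, the tested miRNA whose profile over the 8 arrays lay nearest to each member was found by the root mean square difference of mean-centred log2 signals, as a description. For miR-15b it was miR-20a, of the miR-17-92 cluster, at 0.15, with a change of 0.54 (SE 0.30, n = 4 per group; limma adjusted p = 0.234). For miR-16 it was miR-100 at 0.13, for miR-195 miR-532-3p at 0.079, for miR-497 miR-181c at 0.11 and for miR-503 miR-24 at 0.091. miR-362-3p was nearest to both miR-15a (0.11) and miR-322 (0.094). Within the family miR-195 and miR-497 were nearest to each other, at 0.12, and miR-15b was nearest to miR-497, at 0.23.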

How the data were processed

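Each of 8 samples was hybridised to its own 1-colour Agilent mouse miRNA array, all on 1 slide. The deposited intensity values came from Agilent Feature Extraction (version 10.7.3.1 per the file headers, 10.1.1 per the submitters' processing notes), with local background subtracted and no scaling between arrays. Other deposited values used were marks of 0 or 1 per spot, per the file headers. The series matrix equalled the processed spot signals. Outlier spots (2.34% to 3.52%) were left out, no spot was saturated, and spots were averaged per probe. Scaling divided an array's signals by the 75th percentile of the 371 probes that exceeded background on every array. The scaled probes for a miRNA were then added, raised to at least 0.0213 and put on the log2 scale. Above background means that more than 50% of a probe's spots were marked so. miRNAs above background on all 4 arrays of a group were tested with limma 3.58.1 (lmFit, eBayes) in R 4.3.3, and within-array differences with exact permutation tests over 70 assignments. Python 3.11.15, pandas 2.3.3, numpy 2.4.6, scipy 1.17.1 and matplotlib 3.10.9 were used. The limma and permutation steps were tested on simulated data with independent noise and no outlying array. That check did not cover an array such as obstructed kidney 2, nor the scaling. The normexp alternative used median spot signals. Array number limits the precision. The members, lists and naming rule (all members, 3 related lists and the nearest profile) were chosen with earlier results of these data known. Same-numbered kidneys did not all deviate together (correlations of deviations -0.347, 0.222, 0.622 and 0.0147), so the numbers were not taken as pairs. The highest correlations with an obstructed kidney of another number were 0.363, -0.115, 0.570 and 0.315. Numbers 2 and 3 thus matched best with their own number, and 1 and 4 did not. Whether the groups share mice cannot be told from these values.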

Additional observations from a re-analysis of the deposited data

Results flagged for a closer look

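In 28 groups of 4 values examined (7 members and 7 within-array differences in both groups), 4 held a value far from the other 3, where chance gives about 5%. miR-195 was 0.70 in obstructed kidney 2 and 1.41 to 1.47 in the other obstructed kidneys. miR-15a minus miR-16 was 0.52 in obstructed kidney 2 and -0.021 to 0.043 in the others. miR-497 was 0.62 in contralateral kidney 1 and 1.03 to 1.06 in the other contralateral kidneys. miR-15b minus miR-15a was -1.51 in contralateral kidney 3 and -1.70 to -1.67 in the others.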

How the results depend on the processing

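The count of called members, 0 of 7 on all 8 arrays, was 4 with array weights (which gave obstructed kidney 2 a weight of 0.114), 1 within slide row 2, and from 0 to 3 when single arrays were left out, the 3 without obstructed kidney 2. Without that array it was 7 with no scaling, 1 with normexp and 4 with quantile normalization, combinations chosen after seeing the data. Under the other planned settings it was 0. Among all tested miRNAs the 33 calls became 0 with scaling over all mouse probes, with normexp, with the replicate block and within slide row 1. They became 3 with quantile normalization, with no scaling, with the unscaled series matrix and with the summed gene signal. They became 17 with no filter, 69 within slide row 2 and 138 with array weights, and from 0 to 113 when single arrays were left out. Without obstructed kidney 2 they were 115 with no scaling and 96 with quantile normalization. With the replicate number as a block, miR-15b had a limma adjusted p of 0.178 and 0 members were called. A paired permutation of 4 differences cannot give a p below 0.125 and was not run.

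Members near 0 changed sign, none of them called on all 8 arrays. miR-15a was at 0.095 with quantile normalization, 0.87 with no scaling and with the unscaled series matrix, 0.085 with normexp, 0.10 with the summed gene signal, 0.22 with array weights and 0.052 within slide row 2. Leaving out single arrays gave -0.11 to 0.11, and without obstructed kidney 2 it was 1.29 with no scaling, 0.23 with normexp and 0.19 with quantile normalization. miR-322 was at 0.79 with no scaling and with the unscaled series matrix, 0.028 with the summed gene signal, 0.017 with array weights and 0.0019 within slide row 2. It was -0.16 to 0.0016 without single arrays and 1.17 without obstructed kidney 2 and with no scaling. miR-503 was at -0.98 with normexp, -0.12 within slide row 1, -0.042 to 0.22 without single arrays, and -1.13 with normexp without obstructed kidney 2. miR-322 minus miR-503 turned to 0.84 with normexp, and miR-195 minus miR-16 ran from -0.11 to 0.072 without single arrays. The cause of these changes was not tested. miR-15b kept a change above 0 under every setting run, and miR-15b minus miR-15a was between 0.57 and 0.77 without single arrays.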
